A study of Mus musculus with 8 samples.

Results

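Macrophage and myeloid marker genes were followed in mouse embryonic fibroblasts lacking Cbx2. The set holds 37 genes, chosen by symbol from a list of surface, phagocyte oxidase, complement C1q, lysozyme and myeloid signalling genes, and all 37 had a row among the 17441 genes of the authors' deposited table. The fibroblasts were primary cells from embryonic day 18 embryos, grown to passage 2. RNA was sequenced from 2 libraries of Cbx2-/- cells and from 2 libraries of wild-type littermate cells, with 200000 cells per library. The labels describe no sorting step, do not say how Cbx2 was inactivated and do not tie libraries to embryos, so p-values measure the spread between these libraries, which may be technical.

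Macrophages are phagocytes of blood-cell origin. They depend on the growth factor receptor encoded by Csf1r and on the transcription factor encoded by Spi1 (PU.1), and they recognise targets through Fc receptors, scavenger receptors and complement receptors. Many of these receptors signal through small adaptor proteins, and ingested material is degraded by lysosomal enzymes and by oxidants from the phagocyte NADPH oxidase. Cbx2, the deleted gene, encodes a chromodomain subunit of a polycomb complex that keeps developmental genes silent.

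Each genotype has a single normalised value per gene in the authors' deposited table, and these values sum to 19428299 for wild type and 18910077 for knockout. A gene was said to rise or fall where the adjusted p of the authors' DESeq2 comparison was under 0.05. The deposited fold changes are shrunken toward 0 where reads are few. They equal the log2 ratio of the deposited values, so those values are drawn together too. The mean of both values is a sum of whole reads from the 4 libraries, and the reads of each library could be recovered for the 6126 genes with a mean under 50 (35.1%). Recovered reads are given below as library A and library B of each genotype, whose match to the replicate numbers is not known. Cbx2 itself went from 346.8 to 29.0, a log2 fold change of -3.58 whose standard error, implied by its p-value, was 0.25 (adjusted p = 2.55e-44 by the authors' DESeq2), in the authors' deposited table. Genes listed as fibroblast markers were expressed in both genotypes. All 18 listed fibroblast genes had a row, and their values in the authors' deposited table summed to 883732 in wild type and 775208 in knockout. Col1a1 had the largest of these values (264489 and 227630), and 11 of the 18 genes fell, as given below.

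Of the 37 genes, 19 rose in knockout, none fell and 18 did not pass the threshold by the authors' DESeq2, where 3.48% of all genes rose, 4.3% fell and 7.78% changed in either direction. Of those 18, 4 were higher and 1 was lower at an unadjusted p under 0.05. The median log2 fold change of the 37 genes was 1.20, against 0.0036 over all genes, in the authors' deposited table. Those that rose had log2 fold changes from 0.93 (Cd14) to 2.68 (Lyz2), with a median of 1.72, and 17 of them at least doubled. In these bulk libraries a larger number of cells of a type and more RNA per cell cannot be told apart. The 37 genes were chosen with earlier results of these data known, so their excess over all genes is not independent evidence.

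**Figure D1:**
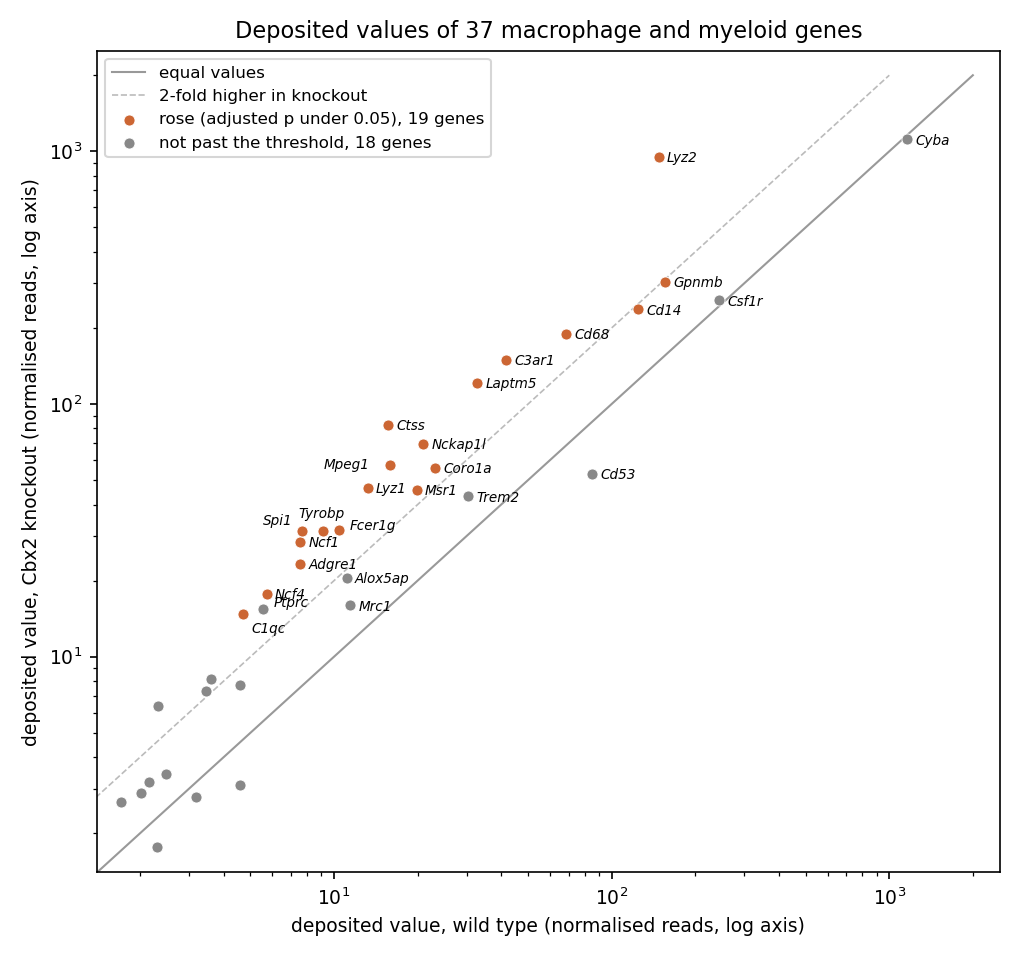
Deposited value of each of the 37 genes in wild type (x axis) and knockout (y axis), in normalised reads on log axes, with the line of equal values and the line of a 2-fold rise. The 19 genes that rose lie near or above the dashed line, Lyz2 is the farthest from the line of equal values, and Csf1r and Cyba lie on that line.

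Reads per library were recovered for the 28 of the 37 genes with a mean under 50. In 24 of these 28 genes both knockout libraries were above both wild-type libraries after scaling by library size, where 22.1% of all recovered genes showed this order. That share includes genes of very few reads. With 10 or more reads it was 31.7% of genes, and 23 of 26 members. C1qb and Aif1 had the opposite order, which 16.3% of recovered genes showed, and Mrc1 and Clec7a overlapped. The other 9 genes (Cd53, Laptm5, C3ar1, Cd68, Cd14, Gpnmb, Csf1r, Lyz2 and Cyba) have only their value per genotype.

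As an alternative test on the recovered reads, limma called 17 of 26 tested members higher at an adjusted p under 0.05, where 6.08% of 3290 genes were called higher. These were all 13 tested members that the authors' DESeq2 called, and Cybb, Ptprc, Cd180 and C1qa. The count was 0 when either wild-type library was left out and 10 when either knockout library was.

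The increase was present in both knockout libraries. The scaled reads of the 28 genes summed to 180 and 220 in the wild-type libraries and to 715 and 751 in the knockout libraries, a ratio of 3.66 between the genotype means. Knockout library A was the higher of its pair in 15 genes and library B in 13. In wild type library A was the higher in 10 genes and library B in 17, with Cybb at 0 in both. The genotypes stood apart in the sums, and neither knockout library was the higher throughout.

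**Figure D2:**
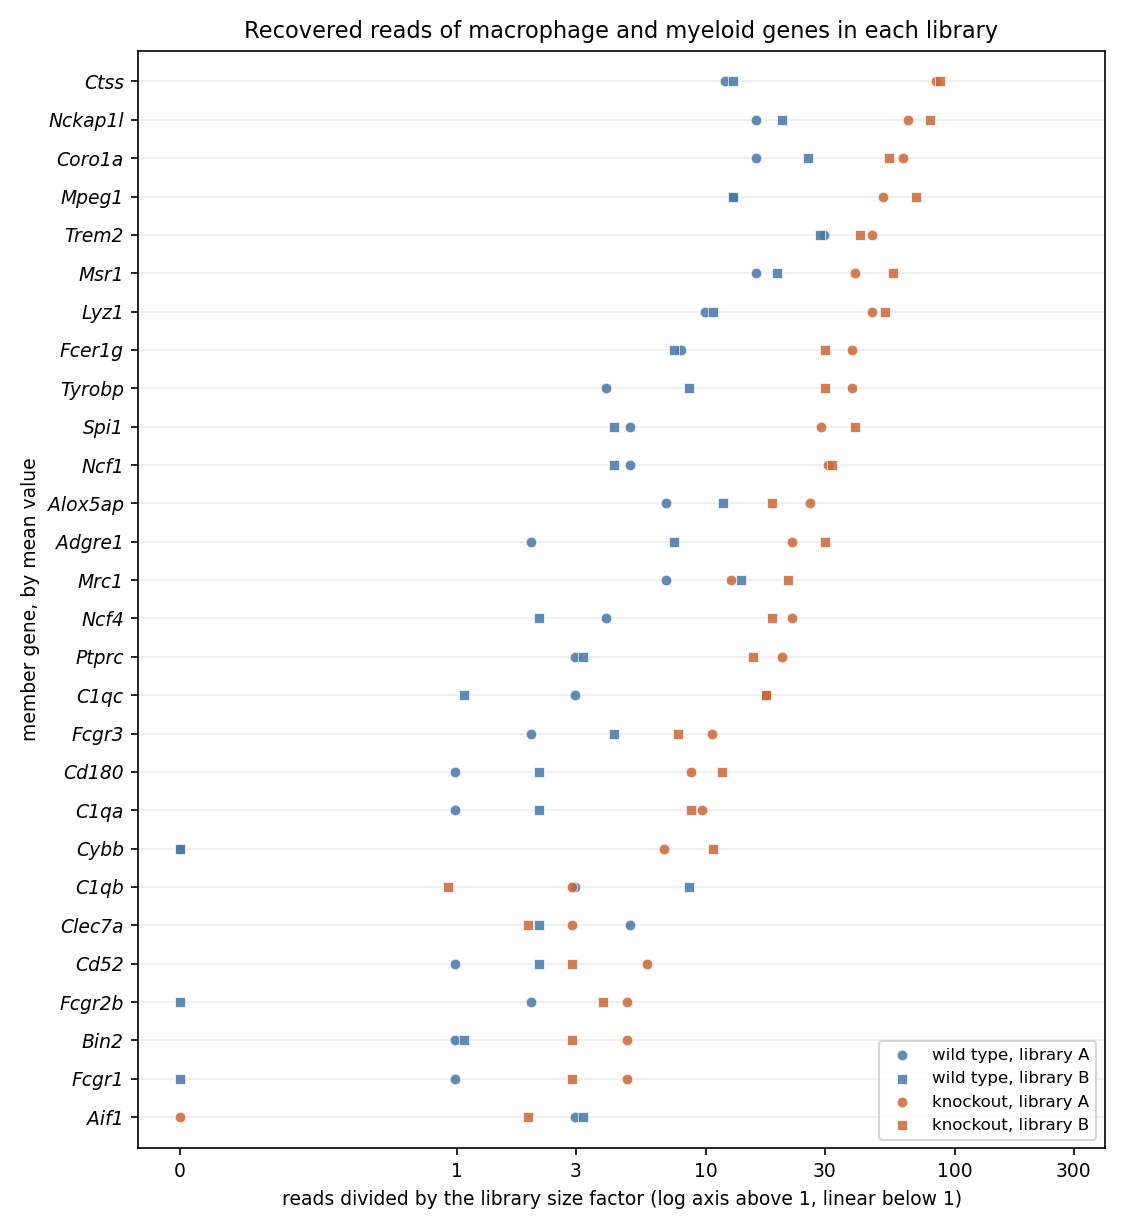
Reads of 28 genes in each library divided by the library size factor, on an axis that is logarithmic above 1 and linear below it, with genes ordered by mean value. Knockout libraries lie to the right of both wild-type libraries in 24 genes and to the left in C1qb and Aif1, and Mrc1 and Clec7a overlap.

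Calls were few only at the lowest level. Of the 12 genes with a mean under 10, 1 rose (C1qc), where 0.182% of the 4407 genes of that level rose. Of the 16 genes with a mean of 10 to 50, 12 rose, against 3.66% of 1719 genes. At a mean of 50 or more 6 of 9 rose, against 4.74% of 11315 genes. In the lowest class the reads nonetheless had both knockout libraries on top in 9 of 12 genes (16.9% of all genes of that level), with a median log2 ratio of reads of 1.61 beside a median log2 fold change of 0.60 in the authors' deposited table. The standard error implied by the p-values had a median over all genes of 0.41 at a mean under 10, 0.45 at 10 to 50 and 0.11 at 50 or more, in the authors' deposited table.

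**Figure D3:**
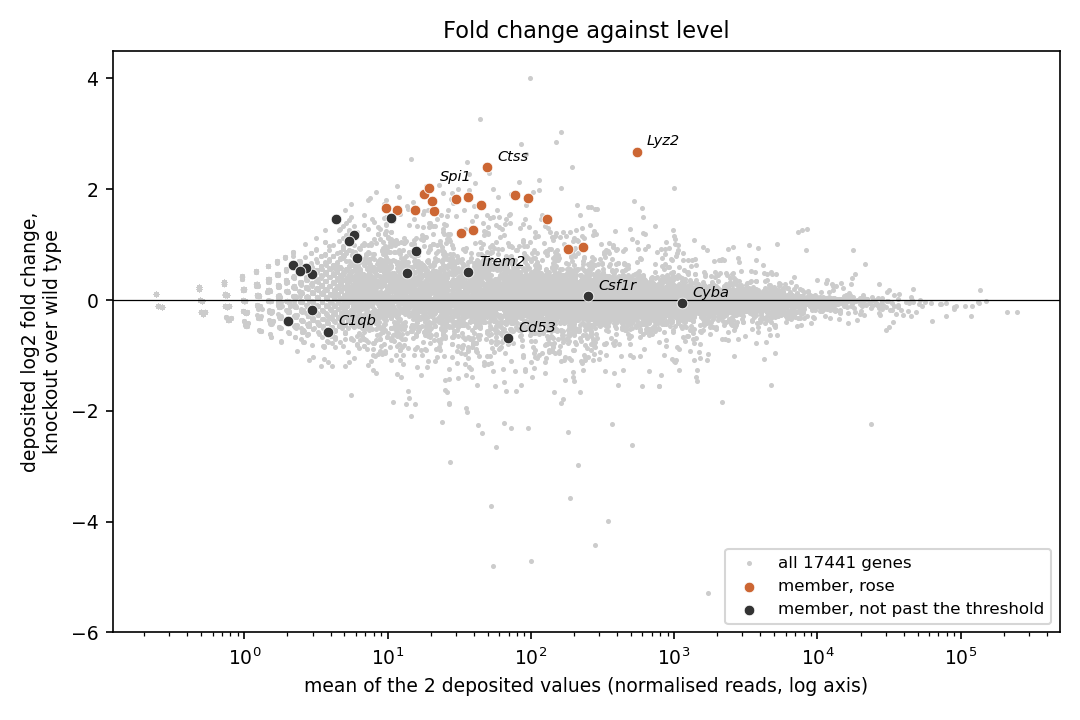
Deposited log2 fold change of knockout over wild type (y axis) against the mean of both deposited values (x axis, log scale), with all 17441 genes in grey. Members that rose form a band between 0.93 and 2.68 at means from that of C1qc to that of Lyz2, while Csf1r and Cyba lie near 0 and Cd53 below it.

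The myeloid transcription factor gene Spi1 rose. It had 5 and 4 wild-type reads and 30 and 41 knockout reads. Both knockout libraries lay well above both wild-type libraries, and the log2 fold change was 2.03 with an implied standard error of 0.49 (DESeq2 adjusted p = 0.000781) in the authors' deposited table. Spi1 (gene 20375) lies on chromosome 2 from 91082374 to 91115759 in GRCm38. Of 17 other transcription factor genes of the myeloid lineage with a row, none rose and 1 fell (2 higher and 3 lower at an unadjusted p under 0.05, and 0 of 5 higher by limma), with a median log2 fold change of -0.02, and the one that fell was Runx1 (-0.33) in the authors' deposited table. Their count is near the 3.48% of all genes that rose. Irf8, a factor of monocyte and dendritic cell development, had 7 and 4 wild-type reads and 13 and 7 knockout reads, which overlap after scaling. Cebpa, which encodes a factor of granulocyte and fat cell differentiation, was at 739 and 772 (adjusted p = 0.931 by DESeq2) in the authors' deposited table.

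Csf1r, the receptor that macrophages need for survival, was among the 18 genes that did not pass the threshold. Its value was 244.6 in wild type and 257.0 in knockout, a log2 fold change of 0.07 with an implied standard error of 0.17 (DESeq2 adjusted p = 0.955), in the authors' deposited table. Csf1r lies on chromosome 18 from 61105572 to 61131139 in GRCm38, and 138 bases separate it from Hmgxb3, which was at 1272 and 1258 in the authors' deposited table. On the other list of neighbours, Pdgfrb lies 20505 bases away and fell from 8891 to 6546 (log2 fold change -0.44, DESeq2 adjusted p = 8.84e-20) in the authors' deposited table. Whether reads of the neighbouring genes add to the Csf1r value was not tested. Of the ligands, Csf1 went from 38271 to 32175 (log2 fold change -0.25, DESeq2 adjusted p = 6.15e-12) and Il34 from 45.2 to 58.3 (0.37, adjusted p = 0.862) in the authors' deposited table.

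Among 14 surface receptor and antigen genes 6 rose and none fell. Adgre1, which encodes the F4/80 antigen of mouse macrophages, had 2 and 7 wild-type reads and 23 and 31 knockout reads. Msr1, a scavenger receptor, had 16 and 18 reads against 41 and 58. The genotypes did not overlap in either gene, and log2 fold changes of 1.63 and 1.20 stand in the authors' deposited table (DESeq2 adjusted p = 0.0212 and 0.0421). C3ar1, the receptor for the complement fragment C3a, went from 41.6 to 149 and Cd68, a glycoprotein of macrophage lysosomes, from 68.7 to 190 (log2 fold changes 1.84 and 1.47, DESeq2 adjusted p = 1.76e-09 and 2.70e-08), both in the authors' deposited table. Cd14, the co-receptor for bacterial lipopolysaccharide, went from 124 to 237 and Gpnmb, a glycoprotein of lysosomes and melanosomes, from 156 to 304 in the authors' deposited table. For Cd14 and Gpnmb the adjusted p was 0.000114 and 2.77e-06 by DESeq2 in the authors' deposited table.

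The other 8 surface genes did not pass the threshold, and they differed in their reads. Ptprc, which encodes the CD45 antigen of white blood cells, had 3 and 3 wild-type reads and 21 and 16 knockout reads (log2 fold change 1.48, DESeq2 adjusted p = 0.0640, in the authors' deposited table). Cd180, a relative of the Toll-like receptors, had 1 and 2 reads against 9 and 12, a ratio of 6.58 after scaling with a 95% counting interval of 1.97 to 34.5. In both genes the genotypes did not overlap. Trem2, a lipid-sensing receptor of macrophages and microglia, had 30 and 27 wild-type reads and 48 and 43 knockout reads, a smaller difference than in the genes above (deposited log2 fold change 0.50 with an implied standard error of 0.38 in the authors' deposited table). Mrc1, the mannose receptor, had 7 and 13 wild-type reads and 13 and 22 knockout reads, which overlap. Clec7a, the receptor for fungal beta-glucan, had 5 and 2 reads against 3 and 2, and Cd52, a small surface glycoprotein of leukocytes, 1 and 2 against 6 and 3. Differences in these last genes were not detectable at this depth.

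Cd53, a tetraspanin of white blood cells, had a lower value in knockout and did not pass the threshold. It went from 84.8 to 52.7, a log2 fold change of -0.69 with an implied standard error of 0.30 (DESeq2 adjusted p = 0.194, p = 0.0223 unadjusted), in the authors' deposited table. Cd53 (gene 12508) lies on chromosome 3 from 106758861 to 106790149 in GRCm38.

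The ITAM adaptor genes rose and the Fc receptor genes did not pass the threshold. Fcer1g, the common gamma chain that carries Fc receptor signals, had 8 and 7 wild-type reads and 40 and 31 knockout reads. Tyrobp, which encodes the adaptor DAP12 used by Trem2 and other receptors, had 4 and 8 reads against 40 and 31. The log2 fold changes were 1.61 and 1.78 (DESeq2 adjusted p = 0.0105 and 0.00409) in the authors' deposited table. The receptors themselves had fewer reads. Fcgr3, the low-affinity activating receptor, had 2 and 4 wild-type reads and 11 and 8 knockout reads. Fcgr2b, the inhibitory receptor, had 2 and 0 reads against 5 and 4, and Fcgr1, the high-affinity receptor, 1 and 0 against 5 and 3. In all 3 the knockout libraries were the higher, with counting intervals of the ratio from 1.14 to 9.11, from 0.88 to 40.3 and from 1.01 to 334, and DESeq2 adjusted p-values from 0.681 to 0.823 in the authors' deposited table. Fcgr2b and Fcgr3 are close relatives on chromosome 1, and reads could be divided between them.

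Of 4 genes of the phagocyte NADPH oxidase 2 rose and none fell. Cybb, which encodes the catalytic subunit gp91phox, had no read in either wild-type library and 7 and 11 in knockout. This is 5.64-fold above a floor of 3 reads over both wild-type libraries. That floor leaves out the counting error of the knockout reads, and the exact 95% counting interval of the ratio begins lower, at 4.14. The DESeq2 adjusted p was 0.0661 in the authors' deposited table. The cytosolic subunit genes Ncf1 and Ncf4 rose, from 5 and 4 reads to 32 and 33 and from 4 and 2 reads to 23 and 19 (log2 fold changes 1.92 and 1.63, DESeq2 adjusted p = 0.00202 and 0.0287, in the authors' deposited table). Cyba, the p22phox partner that also serves oxidases of non-phagocytic cells, was at 1161 in wild type and 1115 in knockout, a log2 fold change of -0.06 with an implied standard error of 0.087 (DESeq2 adjusted p = 0.931), in the authors' deposited table. Per kilobase of gene length Cyba stood at percentile 94.8 of all genes in wild type.

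Rac2 and Rac1 encode oxidase partners that are not among the 37 genes, and Rac2 rose. Rac2, the GTPase of blood cells, had 8 and 10 wild-type reads and 44 and 51 knockout reads (log2 fold change 1.82, DESeq2 adjusted p = 0.000803, in the authors' deposited table). Rac1, its widely expressed relative, was at 9218 and 9432 (adjusted p = 0.931 by DESeq2) in the authors' deposited table.

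Of the genes for the 3 chains of complement C1q, the recognition unit of the classical pathway, C1qc rose and the others did not pass the threshold. C1qc went from 3 and 1 reads to 18 and 18 (log2 fold change 1.66, DESeq2 adjusted p = 0.0296, in the authors' deposited table). C1qa had 1 and 2 wild-type reads and 10 and 9 knockout reads (adjusted p = 0.328 by DESeq2 in the authors' deposited table). C1qb had 3 and 8 wild-type reads and 3 and 1 knockout reads, a ratio of 0.34 with a counting interval from 0.079 to 1.15, which includes no change. Differences between the chains were not tested. The genes are neighbours on chromosome 4, with 3601 bases between C1qb and C1qc and 2980 bases between C1qc and C1qa. The 250 bases before the start sites of C1qc (chr4:136892915-136893164, minus strand) and C1qb (chr4:136886201-136886450, minus strand) are shown because both hold letters of the Spi1 binding motif, from RefSeq in GRCm38.p6, 5′ to 3′. Capitals mark the reverse complement of GAGGAAGT in C1qc and of AGGAAGT in C1qb. The start used for C1qc lies inside the outermost gene model, so that 22 of its bases are within that model.
C1qc: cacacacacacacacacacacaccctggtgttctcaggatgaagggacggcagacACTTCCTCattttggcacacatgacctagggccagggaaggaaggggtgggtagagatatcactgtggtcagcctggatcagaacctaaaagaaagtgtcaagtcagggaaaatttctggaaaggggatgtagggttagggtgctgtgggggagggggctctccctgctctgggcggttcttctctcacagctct
C1qb: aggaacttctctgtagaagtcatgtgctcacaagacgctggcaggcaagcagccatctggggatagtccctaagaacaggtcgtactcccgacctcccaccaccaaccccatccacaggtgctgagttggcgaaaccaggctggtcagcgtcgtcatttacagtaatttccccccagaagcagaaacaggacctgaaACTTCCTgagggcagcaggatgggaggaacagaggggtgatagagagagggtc

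The C1r and C1s proteases that act with C1q are made by fibroblasts, and their genes did not rise. C1s1 went from 184 to 107 (log2 fold change -0.78, DESeq2 adjusted p = 0.00936) and C1ra from 368 to 286 (adjusted p = 0.142) in the authors' deposited table. Of 15 other complement genes with a row 1 rose and 2 fell, with a median log2 fold change of -0.095, in the authors' deposited table. The regulator genes Cd59a (0.39) and Cd55 (-0.39) were the other calls in the authors' deposited table.

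Both lysozyme genes rose, and Lyz2 had the largest log2 fold change of the 37 genes in the authors' deposited table, where those of genes with few reads are shrunken. Lyz2, the lysozyme of macrophages and neutrophils, went from 148 to 947, a log2 fold change of 2.68 with an implied standard error of 0.13 (DESeq2 adjusted p = 2.44e-86), in the authors' deposited table. Lyz1, best known from Paneth cells of the gut, had 10 and 10 wild-type reads and 48 and 54 knockout reads (log2 fold change 1.82, DESeq2 adjusted p = 0.000535, in the authors' deposited table). Per kilobase of gene length the deposited value of Lyz2 was 13.6 times that of Lyz1 in wild type and 24.7 times in knockout. These ratios carry the shrinkage of Lyz1, whose deposited values were 13.2 and 46.5 beside mean scaled reads of 10.3 and 49.4. Lyz2 moved from percentile 59.8 to percentile 90.8 of all genes. The genes lie 5523 bases apart on chromosome 10 and have closely related sequences, so that reads could be divided between them. Their 250 bases before the start site, on the minus strand at chr10:117282273-117282522 for Lyz2 and chr10:117292869-117293118 for Lyz1, are shown because these neighbours moved together. In a global alignment 205 of 260 columns were identical (78.8%), and in both the capitals mark the reverse complement of AGGAAGT, ending 93 bases before the start site.
Lyz2: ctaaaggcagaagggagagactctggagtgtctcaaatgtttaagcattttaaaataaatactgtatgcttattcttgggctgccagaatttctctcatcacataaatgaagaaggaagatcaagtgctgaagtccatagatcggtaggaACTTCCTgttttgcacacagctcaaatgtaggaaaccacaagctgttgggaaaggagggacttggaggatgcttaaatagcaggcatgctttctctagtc
Lyz1: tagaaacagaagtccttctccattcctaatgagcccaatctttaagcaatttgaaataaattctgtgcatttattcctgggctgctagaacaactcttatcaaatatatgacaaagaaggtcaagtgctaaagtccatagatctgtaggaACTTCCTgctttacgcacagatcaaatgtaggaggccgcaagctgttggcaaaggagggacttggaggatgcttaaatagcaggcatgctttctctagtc

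Promoters were available from RefSeq for 25 of the 37 genes. Within 250 bases before a start site and on either strand, AGGAAGT was found in 7 of these 25 genes and in 8.80% of all 27025 genes. The longer GAGGAAGT, which contains AGGAAGT, was found in 1 of 25 (C1qc) and in 2.79% of all genes. GAGGAA, which overlaps both, was found in 13 of 25 and in 25.9% of all genes. GAGGAA was found in 4 of 12 genes that rose and 9 of 13 that did not pass the threshold, and AGGAAGT in 3 of 12 and 4 of 13. The palindrome TTGCGCAA, the consensus of C/EBP factors, was found in 0 of 25 and in 0.185% of all genes.

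Of 4 lysosomal, pore-forming and lipid mediator genes 3 rose and none fell. Ctss, which encodes the protease cathepsin S, had 12 and 12 wild-type reads and 87 and 90 knockout reads (log2 fold change 2.39, DESeq2 adjusted p = 9.40e-09, in the authors' deposited table). Mpeg1, the pore-forming perforin-2 of macrophages, had 13 and 12 reads against 53 and 72. The genotypes did not overlap in either gene, and the log2 fold change of Mpeg1 was 1.86 (DESeq2 adjusted p = 0.000125) in the authors' deposited table. Laptm5, a lysosomal membrane protein of blood cells, went from 32.8 to 121 (log2 fold change 1.89, DESeq2 adjusted p = 6.03e-08) in the authors' deposited table. Alox5ap, which presents arachidonic acid for leukotriene synthesis, had 7 and 11 wild-type reads and 27 and 19 knockout reads and did not pass the threshold (log2 fold change 0.89, DESeq2 adjusted p = 0.425, in the authors' deposited table).

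Of 4 regulators of actin and membranes in blood cells 2 rose. Nckap1l, the blood-cell subunit of the WAVE actin complex, had 16 and 19 wild-type reads and 67 and 82 knockout reads. Coro1a, an actin-binding coronin of leukocytes, had 16 and 24 reads against 64 and 56. The genotypes did not overlap in either gene, where the log2 fold changes were 1.72 and 1.27 (DESeq2 adjusted p = 0.000104 and 0.0154) in the authors' deposited table. Aif1, which encodes the IBA1 antigen of macrophages and microglia, had 3 and 3 wild-type reads and 0 and 2 knockout reads. Bin2, a membrane-curving protein of phagocytes, had 1 and 1 reads against 5 and 3. With so few reads neither difference was detectable at this depth (DESeq2 adjusted p = 0.931 and 0.877 in the authors' deposited table).

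Some further myeloid genes also rose. Of 73 other macrophage and myeloid genes with a row, 12 rose, none fell and the others did not pass the threshold. Over all genes 3.48% rose and 4.3% fell. The median log2 fold change of the 73 was 0.61 in the authors' deposited table. Among the 58 of the 73 with a mean under 50, both knockout libraries were above both wild-type libraries in 41 and below in 4. Over all recovered genes these shares were 22.1% and 16.3%, and 31.7% of recovered genes with 10 or more reads had both knockout libraries above. Itgam and Itgb2, which encode the CD11b and CD18 chains of complement receptor 3, had 6 and 5 reads against 41 and 41 and 9 and 11 against 46 and 51. Siglec1, the sialoadhesin of tissue macrophages, had no read in wild type and 13 and 10 in knockout, 7.21-fold above a floor of 3 reads over both libraries. That floor leaves out the counting error of the knockout reads, and the exact 95% counting interval of the ratio begins lower, at 5.41. Lcp1, an actin-bundling protein of leukocytes, went from 42.2 to 164, and Ctsh, the protease cathepsin H, from 286 to 907 (DESeq2 adjusted p = 2.02e-11 and 1.31e-42) in the authors' deposited table. Lilrb4a, an inhibitory receptor of myeloid cells, had 13 and 10 reads against 63 and 65. The list was chosen with earlier results of these data known, so its direction is not independent evidence. The genes named here were all higher in knockout, and the 4 with the opposite order are not named.

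Markers of other blood cells were counted in the same way, most of them at a mean under 10. Of 9 neutrophil genes, 5 T and NK cell genes and 13 erythroid and megakaryocyte genes with a row, none rose and none fell by the authors' DESeq2, and the median log2 fold changes were 0.07, 0.22 and 0.10 in the authors' deposited table. At an unadjusted p under 0.05 the counts were 0 neutrophil genes, 1 T and NK cell gene (higher) and 0 erythroid and megakaryocyte genes. limma called 0 of the 7 genes of these lists it could test. In simulated reads limma found 27 of 100 changes of 2-fold, so this 0 does not show an absence of change. The T cell kinase gene Lck had 15 and 10 reads against 16 and 13, and the neutrophil gene Mpo 1 and 2 against 1 and 2. Of 6 B cell genes Ebf1 fell (1525 to 1042 in the authors' deposited table). The others had few reads. Pax5, Igll1 and Cd22 each had 0 and 0 against 0 and 1, Cd79a 1 and 4 against 6 and 8, and Vpreb1 3 and 0 against 3 and 2. Of 7 mast cell and basophil genes Mcpt8 rose (573 to 1179) and Gata2 fell (364 to 201), both in the authors' deposited table. Cma1 of that list had 1 and 0 reads against 6 and 3, and Ms4a2 8 and 4 against 5 and 2. Among 10 osteoclast genes Itgb3 fell, and among 6 microglia genes Olfml3, Tmem119 and Sall1 fell. Which cells of the culture the values of these called genes come from was not tested.

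Markers of the fibroblasts that make up the culture mostly fell, and endothelial markers went both ways. Of 18 fibroblast genes, all with a mean of 50 or more, 11 fell, 1 rose and the others did not pass the threshold. Over all genes 4.3% fell, and 6.36% did among genes of that level. The median log2 fold change of the 18 was -0.24 in the authors' deposited table. The calls with the smallest adjusted p were those of Postn, Thy1 and Dcn. Postn, the matrix protein periostin, went from 39240 to 8337 and Dcn, decorin, from 5774 to 2767, while Thy1 rose (4928 to 11919), all in the authors' deposited table. Of 11 endothelial genes 2 rose and 1 fell, and their values summed to 804 for wild type and 1128 for knockout in the authors' deposited table. Cdh5 and Esam, which encode adhesion proteins of endothelial junctions, rose (61.6 to 324 and 35.6 to 290), the endothelial receptor gene Flt1 fell (540 to 369), and Pecam1 was at 2.02 and 1.98, all in the authors' deposited table. Whether the fibroblast or endothelial changes took part in the rise of the myeloid genes was not tested.

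**Figure D4:**
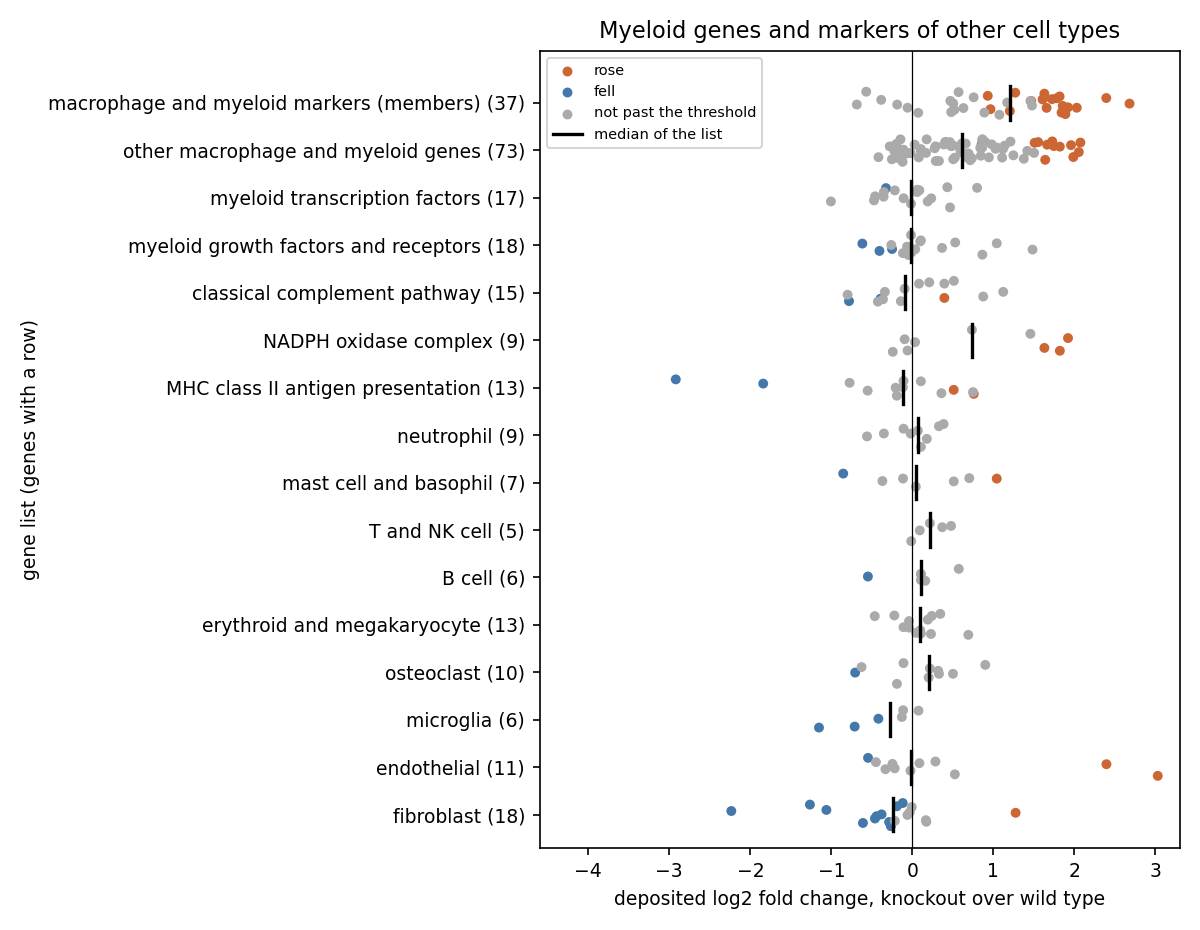
Deposited log2 fold change of knockout over wild type for each gene of the 37 members and of 15 further lists, with genes that rose or fell in colour, the others in grey and a bar at the median of each list. The members and the other macrophage genes lie mostly to the right of 0, the fibroblast genes mostly to the left, and the neutrophil, T and NK cell and erythroid lists have no coloured point.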

How the data were processed

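RNA from 4 libraries was analysed, and the ATAC-seq libraries were not used here. The tools listed for the authors' work, per the submitters' processing notes, are DESeq2, RSEM, HISAT2 and Bowtie2, on mm10. For their versions and roles the sources used here give nothing. The authors deposited 1 normalised read signal per genotype, a log2 fold change that equals the log2 ratio of the signals to within 9.13e-09, and p-values whose adjusted form equals a Benjamini-Hochberg adjustment over all 17441 genes. The planned count test per library could not be used on such values, so the authors' own DESeq2 test was used.

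Steps computed from the files were these. The mean of the signals was solved for whole reads per library with size factors of 1.01 and 0.935 for the wild-type libraries and 1.03 and 1.03 for the knockout libraries (Python 3.11.15). Exactly 1 solution matched the rounding of the table in each of the 6126 genes with a mean under 50. Genes above this mean were not searched, so reads of 9 members are not given. Ratios of reads use a pseudocount of 0.5 on the log2 scale. Their intervals are exact 95% binomial (Clopper-Pearson) intervals and cover counting error only. The floor of 3 reads covers that of the wild-type reads only. limma 3.58.1 (R 4.3.3) was run on log2 scaled reads as an alternative, over 3290 genes of 10 or more reads, because it failed its test on simulated data with fewer. The recovery and limma were tested on simulated data. The recovery returned the right reads in 600 of 600 genes. limma found 27 of 100 changes of 2-fold and 93 of 100 of 4-fold. Coordinates and promoters are from RefSeq GRCm38.p6, matched by gene identifier for 17400 genes.

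The members and gene lists were chosen with earlier results of these data known. The rule for names took all members, Cbx2, up to 3 called genes of each other list by the smallest adjusted p, and partners of members. Siglec1, Mpo, Lck, Pecam1, Cd74, H2-Aa, Ciita, Pax5, Cd22, Igll1, Cd79a, Vpreb1, Cma1, Ms4a2, Pdgfrb and Col1a1 were also named, after their values were seen. One partner gene is not reported here.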

Additional observations from a re-analysis of the deposited data

How the results depend on the processing

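The count of 19 genes that rose was 13 at an adjusted p under 0.01 and 17 with a 2-fold change required as well. It was 17 without Lyz1, Lyz2, Fcgr2b and Fcgr3. Among genes with a mean of 10 or more it was again 19, but not of the same genes. C1qc was left out and Ptprc was called, so no C1q gene rose and 7 functional groups held a rise. Restricted to genes whose mean reached the median of the table, which leaves 3 members, 1 rose (Lyz2), and the count of 8 functional groups with a rise became 1. In limma on recovered reads 17 of 26 members tested were higher at an adjusted p under 0.05, where 6.08% of all genes tested were, with a pseudocount of 0.5 or 2. They were all 13 that the authors' test called among them, and Cybb, Ptprc, Cd180 and C1qa. Leaving out each library in turn, limma called between 0 and 10 members, with 0 when either wild-type library and 10 when either knockout library was left out, and the single remaining library was assumed to vary like the others. Clec7a then reversed, to a log2 change of 0.13 without wild-type library A, against -0.92 without wild-type library B. The count of 24 genes with both knockout libraries on top was 24 or 25 without each library. At an adjusted p under 0.01 the rises were 0 at a mean under 10 and 7 at a mean of 10 to 50. The median log2 fold change of 1.20 was 2.11 by the reads of members with a mean under 50 and 1.61 for members with a mean of 10 or more. No paired analysis was possible because the recovered libraries cannot be tied to replicate numbers. Depth limits the 12 members with a mean under 10.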

Other observations

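Genes of MHC class II antigen presentation, which macrophages can express, went both ways. Of 13 such genes with a row 2 rose and 2 fell, with a median log2 fold change of -0.12, in the authors' deposited table. H2-DMb1, a subunit of the peptide-loading factor, had 49 and 51 wild-type reads and 5 and 1 knockout reads. H2-Eb1, a class II beta chain, had 15 and 23 reads against 2 and 2, while H2-Ab1, another beta chain, rose (117 to 197, DESeq2 adjusted p = 0.00599, in the authors' deposited table). Cd74, the invariant chain, had 3 and 1 wild-type reads and 7 and 8 knockout reads. H2-Aa, a class II alpha chain, had 0 and 0 reads against 1 and 0, and Ciita 1 and 0 against 0 and 0. Whether macrophages are the source of these values was not tested.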
